A study of Homo sapiens with 51 samples.

Results

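The 9 regulators of the anterior neural plate and forebrain SIX3, SIX6, HESX1, LHX2, OTX2, RAX, FEZF1, FEZF2 and EMX2, were followed by ATAC-seq, an assay that counts transposase insertions in open chromatin. The deposited regions all have the same width. For each region the nearest end of any RefSeq coding or lncRNA gene was found from the region's centre. The region belonged to that gene when this end lay within 50 kb. EMX2OS, an antisense RNA by its RefSeq biotype, was not among the lncRNA genes. This rule gave 129 of 162317 regions under SMADi, 113 of 142087 under BMP4 and 92 of 100584 at day 0, and all of them passed the filter on low counts. Under SMADi the regions per gene numbered 23 for SIX3, 10 for SIX6, 4 for HESX1, 16 for LHX2, 10 for OTX2, 15 for RAX, 9 for FEZF1, 10 for FEZF2 and 32 for EMX2. Regions nearer to a lncRNA end were left out of these counts. With coding gene ends only, the genes had 214 regions under SMADi, among them 52 for SIX3, 32 for LHX2 and 31 for OTX2. The cells were H1, an established line of human embryonic stem cells, in a KO line, a ΔATG line and WT. The labels list no other edit or reporter. SMADi is a commercial neural induction medium that blocks SMAD signalling, and its libraries came from days 1, 4 and 5. BMP4 is a growth factor used here to drive cells to mesoderm, and its libraries came from days 1 to 5. The day 0 libraries were undifferentiated cells of each genotype. The series title concerns an RNA with more than 1 function in embryonic development, and its edited locus is not named in the labels, which leaves the edits unchecked in these libraries. The labels also do not say whether each line is a single clone.

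The anterior neural plate gives rise to the forebrain and the eyes, and neural cells formed while BMP and Nodal signals are blocked tend toward this anterior identity. SIX3 and HESX1 are homeodomain repressors that protect the forebrain from signals of more posterior tissue, and OTX2 is the homeodomain activator on which forebrain and midbrain depend. RAX, SIX6 and LHX2 belong to the network of eye field regulators, FEZF1 and FEZF2 are zinc finger repressors of the forebrain, and EMX2 is a homeodomain factor of the developing cortex. Accessible chromatin near these genes is a measure of their regulatory DNA and not of their RNA.

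Promoters of HESX1, OTX2 and EMX2 are shown because regions over them carry several of the differences between the lines. Each runs from 250 bases before to 50 bases after a RefSeq start site on GRCh38.p14 and is written 5′ to 3′ on the gene's own strand. Capitals mark every match to the homeodomain core TAATTA or CAATTA on either strand, the opposite strand of CAATTA being TAATTG. The stretches are chr3:57199929-57200228 (minus strand) for the inner HESX1 start, chr14:56810430-56810729 (minus strand) for the outer OTX2 start, chr14:56805618-56805917 (minus strand) for the inner OTX2 start and chr10:117542496-117542795 (plus strand) for EMX2.
HESX1 inner start: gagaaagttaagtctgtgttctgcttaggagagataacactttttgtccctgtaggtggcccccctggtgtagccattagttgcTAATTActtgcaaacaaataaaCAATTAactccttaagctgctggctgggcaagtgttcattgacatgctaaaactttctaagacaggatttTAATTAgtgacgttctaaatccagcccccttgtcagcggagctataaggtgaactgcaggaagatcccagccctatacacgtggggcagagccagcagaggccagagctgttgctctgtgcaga
OTX2 outer start: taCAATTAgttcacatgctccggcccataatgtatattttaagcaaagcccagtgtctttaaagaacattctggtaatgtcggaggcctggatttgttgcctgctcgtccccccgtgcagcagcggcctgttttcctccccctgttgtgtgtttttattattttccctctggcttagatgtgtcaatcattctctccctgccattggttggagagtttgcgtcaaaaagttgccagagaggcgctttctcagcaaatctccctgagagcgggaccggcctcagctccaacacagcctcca
OTX2 inner start: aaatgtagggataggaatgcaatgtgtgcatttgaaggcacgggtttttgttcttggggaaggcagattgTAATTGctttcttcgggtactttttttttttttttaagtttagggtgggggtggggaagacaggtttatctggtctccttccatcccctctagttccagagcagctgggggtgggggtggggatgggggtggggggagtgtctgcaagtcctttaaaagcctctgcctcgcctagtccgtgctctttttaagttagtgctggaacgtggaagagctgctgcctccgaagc
EMX2 start: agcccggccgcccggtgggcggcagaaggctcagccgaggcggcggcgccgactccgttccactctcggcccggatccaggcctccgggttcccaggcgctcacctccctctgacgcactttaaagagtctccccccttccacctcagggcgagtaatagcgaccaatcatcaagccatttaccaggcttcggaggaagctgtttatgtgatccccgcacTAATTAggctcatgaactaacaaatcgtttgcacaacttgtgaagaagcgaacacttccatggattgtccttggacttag
The core occurred in 6 of 10 promoters of the 7 listed genes in the promoter table and in 11.4% of all 35116 promoters. The FEZF1 promoters chr7:122304462-122304761 and chr7:122304701-122305000 overlap, and the match in each is the same site. The 6 promoters with a match are therefore not independent. The HESX1 stretch held 3 matches, at -166, -144 and -74 bp from the start site, and 0.239% of all promoters held 3 or more. The other 3 stretches held 1 match each, at -248 bp for the outer OTX2 start, -180 bp for the inner OTX2 start and -30 bp for EMX2. Counts of the CpG dinucleotide were 3 for HESX1, 9 and 6 for the outer and inner OTX2 starts and 21 for EMX2, against a median of 14 over all promoters. Every one of the 10 promoters was covered at least in part by an accessible region of the SMADi table. SIX3 and FEZF2 are named without a promoter sequence.

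The 51 libraries were 17 KO, 16 ΔATG and 18 WT, with total counts of 7086918 to 23252871 under SMADi, 4019778 to 13850448 under BMP4 and 4616521 to 7516259 at day 0. Replicates are lettered a and b, and under SMADi the KO day 4, ΔATG day 1 and ΔATG day 5 groups had 1 library each, whose spread is taken from the other groups. Nothing in the labels tells whether a and b were grown separately, and the p-values cover no more than the spread of these libraries, which may be technical. One library, labelled KO replicate b of SMADi day 1, lay close to ΔATG at regions that separated the mutant lines under BMP4. Over 1465 SMADi regions matched to BMP4 regions called between KO and ΔATG, its mean log2 difference from the ΔATG library of that day was 0.05, signed so that a positive value points toward KO. The other KO libraries under SMADi lay between 0.27 and 0.34 on this scale, and the WT libraries between 0.08 and 0.29. KO results that use SMADi day 1 are therefore also given without that library.

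Levels are given as CPM, a region's count scaled to a common library size after TMM normalisation, and a gene's level is the sum of CPM over its regions, called the gene sum. Gene sums grow with the number of regions, so they are compared between samples of one gene and not between genes. Calls are those of edgeR's quasi-likelihood test with Benjamini-Hochberg adjustment over all features of a table, at an adjusted p under 0.05, and differences are log2 fold changes ± SE. In bulk libraries, fewer cells of a type and less open chromatin per cell cannot be told apart.

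Neural induction in WT cells raised accessibility around SIX3 and HESX1 most, with smaller rises at RAX and FEZF2 that depended on the window around the gene. The SIX3 gene sum in WT cells was 111 and 123 CPM at day 1, 190 and 185 CPM at day 4 and 218 and 214 CPM at day 5. The HESX1 gene sum in WT cells was 22.6 and 22.6 CPM at day 1, 41.3 and 43.8 CPM at day 4 and 49.5 and 45.1 CPM at day 5. For both genes the days 4 and 5 libraries lay above every day 1 library. From day 1 to day 5, WT gene sums rose by 0.82 ± 0.06 for SIX3 (adjusted p = 2.89e-12) and by 0.99 ± 0.11 for HESX1 (adjusted p = 1.14e-08). RAX rose by 0.33 ± 0.07 (adjusted p = 0.000372) and FEZF2 by 0.36 ± 0.10 (adjusted p = 0.00629). In gene sums within 1 kb of the gene ends both signs turned, to -0.01 for RAX and -0.33 for FEZF2, and neither was called. LHX2 fell by 0.21 ± 0.07 (adjusted p = 0.0116), a call that was lost with coding gene ends only, where the difference was -0.0035 (adjusted p = 0.97), and without WT day 1 replicate b or WT day 5 replicate a. SIX6, OTX2, FEZF1 and EMX2 did not pass the test, with log2 differences of -0.21, -0.24, 0.10 and 0.16. The 4 gene sums that rose and the 1 that fell stand beside 22.9% of all gene sums higher and 21% lower in that comparison.

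OTX2 in WT cells peaked at day 4, with gene sums of 42 and 43.6 CPM at day 1, 60 and 53.6 CPM at day 4 and 35.1 and 39.6 CPM at day 5. The day 4 libraries stood above those of the other days, and the day 5 pair lay below the day 1 pair. OTX2 rose by 0.40 ± 0.10 between days 1 and 4 (adjusted p = 0.00209) and fell by 0.64 ± 0.11 between days 4 and 5 (adjusted p = 0.000216). Among all gene sums, 20.1% were higher at day 4 than at day 1 and 5.22% were lower at day 5 than at day 4.

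**Figure D1:**
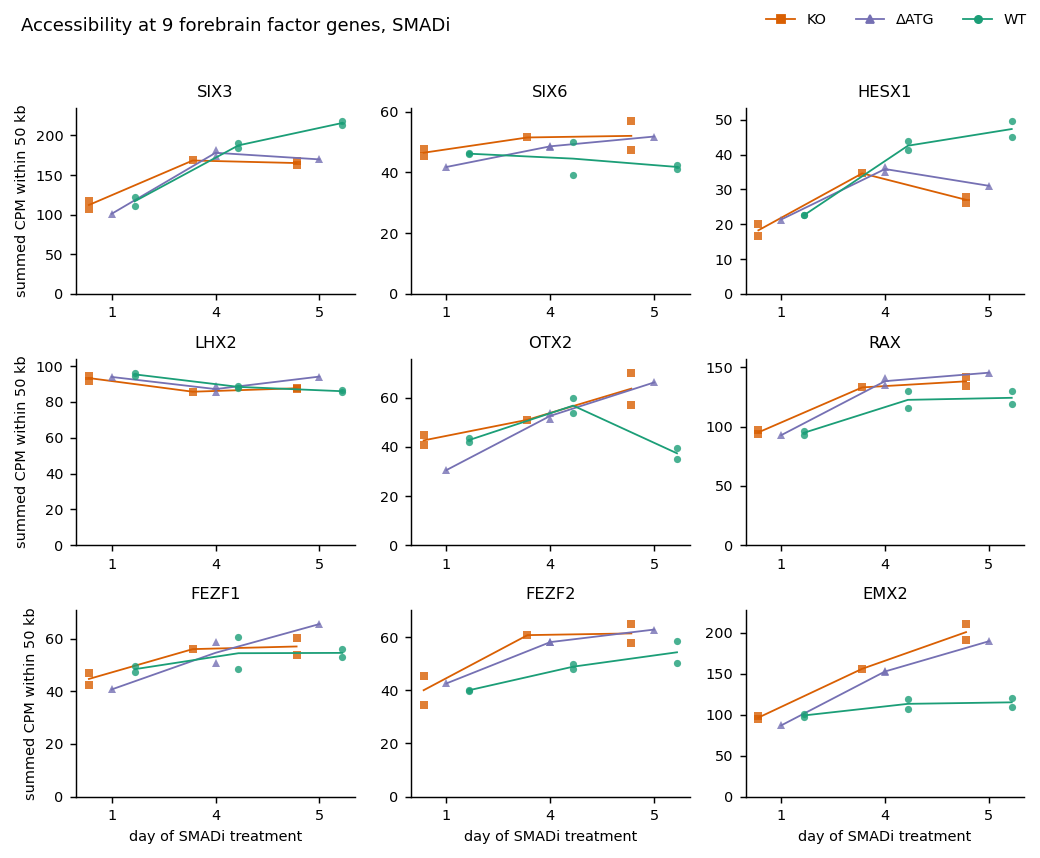
Gene sums (y axis, CPM, linear from 0) of the 9 genes on SMADi days 1, 4 and 5 (x axis, days equally spaced), with 1 point per library for KO (orange squares), ΔATG (purple triangles) and WT (green circles) and lines through the group means. WT lies above both mutant lines at day 5 for SIX3 and HESX1 and below them for OTX2 and EMX2, and at day 1 the gaps between the lines are smaller than at day 5 for SIX3, HESX1 and EMX2.

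Single regions moved in both directions within the same gene. Of the 129 regions, 36 were higher and 16 lower at day 5 than at day 1 in WT cells, against 23.9% and 17.1% of all regions. The median log2 difference was 0.10 over the 129 regions and 0.00 over all regions. SIX3 held 14 of the regions that rose and 5 of those that fell, and HESX1 held 2 that rose among its 4.

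Regions away from the promoters were among those that opened in WT cells. A region 27 kb beyond the higher-coordinate end of SIX3, chr2:44972886-44973086, had 0.781 and 0.975 CPM at day 1, 17 and 17.9 CPM at day 4 and 16.8 and 17.1 CPM at day 5, a rise of 4.27 ± 0.26 (adjusted p = 2.2e-17). A region 3861 bp below the lower-coordinate end of FEZF2, chr3:62365720-62365920, had 1.02 and 1.43 CPM at day 1, 13.3 and 12.6 CPM at day 4 and 21.9 and 17.7 CPM at day 5, a rise of 3.99 ± 0.24. A region 2851 bp upstream of RAX, chr18:59276205-59276405, had 1.32 and 1.88 CPM at day 1, 12.1 and 13.1 CPM at day 4 and 20.1 and 17.3 CPM at day 5, a rise of 3.53 ± 0.23. At each of the 3 regions every later library exceeded the day 1 libraries severalfold. A region 3011 bp past the 3′ end of HESX1, chr3:57194727-57194927, held 167 reads in the WT day 5 libraries and 4 in those of day 1. After scaling, this was a ratio of 61.1 with a 95% interval of 23.4 to 227 that covers counting error only.

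The opposite course was seen inside OTX2. The region chr14:56808594-56808794 in the gene body had 6.13 and 6.76 CPM at day 1 in WT cells and 0.735 and 0.463 CPM at day 5, a log2 difference of -3.52 ± 0.41. At the outer OTX2 start, whose promoter is printed above, chr14:56810439-56810639 opened in WT cells, with 0.601 and 0.585 CPM at day 1, 4.38 and 3.61 CPM at day 4 and 4.12 and 2.52 CPM at day 5 (2.38 ± 0.40). Gene sums of OTX2 within 1 kb of the gene ends, which hold the outer start and leave out the gene body, rose by 1.62 in WT cells, where the 50 kb sums gave -0.24.

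SIX3 gene sums were lower than WT in both mutant lines at SMADi day 5. SIX3 gene sums at day 1 were 117 and 108 CPM in KO, 101 CPM in ΔATG and 111 and 123 CPM in WT. At day 4 they were 168 CPM in KO, 174 and 182 CPM in ΔATG and 190 and 185 CPM in WT. At day 5 they were 162 and 168 CPM in KO, 170 CPM in ΔATG and 218 and 214 CPM in WT. The day 4 and day 5 values of the mutant lines all lay below those of WT. The day 5 log2 difference from WT was -0.47 ± 0.06 in KO (adjusted p = 4.35e-07) and -0.40 ± 0.07 in ΔATG (adjusted p = 0.000159). At day 4 the difference was called in KO (-0.20, adjusted p = 0.0467) and not in ΔATG (-0.09 ± 0.06, adjusted p = 0.23). At day 1 neither line was called, with -0.04 ± 0.06 in KO and -0.25 ± 0.08 in ΔATG (unadjusted p = 0.0037, adjusted p = 0.11). Over the 3 days the difference from WT was -0.24 ± 0.04 in KO (adjusted p = 1.03e-05) and -0.25 ± 0.04 in ΔATG (adjusted p = 2.28e-05). Without KO day 1 replicate b the KO value was -0.22.

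Single SIX3 regions differed from WT in both directions. The WT change from day 1 to day 5 and the day 5 difference from WT share the WT day 5 libraries, so their values stand side by side here without a relation between them. Over the start of SIX3, chr2:44941588-44941788 had 2.35 and 2.48 CPM at day 1, 5.45 CPM at day 4 and 6.8 and 5.17 CPM at day 5 in KO. ΔATG had 1.91 CPM at day 1, 4.3 and 5.45 CPM at day 4 and 5.47 CPM at day 5. WT had 1.68 and 2.66 CPM at day 1, 11.1 and 13.4 CPM at day 4 and 18.8 and 15.1 CPM at day 5. The lines overlapped at day 1, and at days 4 and 5 every WT library exceeded every mutant library. WT rose by 2.95 ± 0.25 (adjusted p = 5e-13) from day 1 to day 5. The day 5 difference from WT was -1.49 ± 0.22 in KO (adjusted p = 1.2e-06) and -1.61 ± 0.27 in ΔATG (adjusted p = 2.3e-05). This region also lies over the antisense lncRNA SIX3-AS1 (chr2:44940154-44941878), which overlaps the start of SIX3 (chr2:44941702-44946071), so its accessibility belongs to both.

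At day 5 in KO, 11 of the 23 SIX3 regions were lower and 3 were higher, and in ΔATG 9 were lower and 3 higher. Among all regions 21% were lower and 19.2% higher in KO, and 14.6% were lower and 12% higher in ΔATG. The region 27 kb away had 8.16 and 9.01 CPM in KO, 11 CPM in ΔATG and 16.8 and 17.1 CPM in WT at day 5. The 3 higher regions lie together inside the gene, and one of them, chr2:44944423-44944623, had 4.79 and 3.64 CPM in KO, 4.13 CPM in ΔATG and 0.588 and 0.861 CPM in WT at day 5. At day 1 the same region had 4.24 and 4.34 CPM in KO, 4.07 CPM in ΔATG and 5.05 and 5.2 CPM in WT. WT lost most of this signal by day 5 (-2.72 ± 0.37), and the mutant libraries stayed near their day 1 level. Its day 5 difference was 2.44 ± 0.38 in KO (adjusted p = 3.3e-06) and 2.41 ± 0.42 in ΔATG (adjusted p = 3.5e-05). The most accessible SIX3 region, chr2:44949926-44950126 about 4 kb past the gene, had 28.6 and 33.9 CPM in KO, 30.1 CPM in ΔATG and 37.9 and 31.8 CPM in WT at day 5 and was not called in either line.

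Of the 9 gene sums, HESX1 had the most negative difference from WT over the SMADi days in each mutant line. Its gene sums at day 5 were 27.9 and 26.1 CPM in KO, 31 CPM in ΔATG and 49.5 and 45.1 CPM in WT. At day 4 they were 34.6 CPM in KO, 35.1 and 36.6 CPM in ΔATG and 41.3 and 43.8 CPM in WT. At day 1 they were 16.5 and 20 CPM in KO, 21.4 CPM in ΔATG and 22.6 and 22.6 CPM in WT. The WT libraries lay above those of the mutant lines on each of the 3 days. The day 5 difference was -0.89 ± 0.11 in KO (adjusted p = 1.85e-07) and -0.66 ± 0.13 in ΔATG (adjusted p = 0.00033), and over the days it was -0.51 ± 0.07 in KO and -0.35 ± 0.07 in ΔATG. Without KO day 1 replicate b the KO value over the days was -0.55.

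The HESX1 difference sat at the inner start, where the printed promoter holds 3 homeodomain cores. The region chr3:57199899-57200099 shares 171 bp with that promoter. It had 9.37 and 8.56 CPM in KO, 10.9 CPM in ΔATG and 31.5 and 25.5 CPM in WT at day 5. At day 4 the values were 18.4 CPM in KO, 18.9 and 20 CPM in ΔATG and 24.9 and 29.3 CPM in WT, and at day 1 they were 7.06 and 9.29 CPM in KO, 13 CPM in ΔATG and 13.6 and 13.1 CPM in WT. In the mutant lines the region was more open at day 4 than at day 5, and in WT it stayed open. The day 5 difference was -1.65 ± 0.17 in KO (adjusted p = 3.3e-10) and -1.38 ± 0.20 in ΔATG (adjusted p = 1.6e-06). The region 3 kb past the 3′ end had 3.79 and 4.28 CPM in KO, 4.31 CPM in ΔATG and 9.85 and 6.62 CPM in WT at day 5. A region near the outer start, chr3:57227266-57227466, went the other way with 10.7 and 7.54 CPM in KO, 9.14 CPM in ΔATG and 2.65 and 5.69 CPM in WT. The outer promoter itself is nearer to the start of APPL1, a neighbouring gene, and was not counted for HESX1. Gene sums within 1 kb of the gene ends leave out the inner start, 2161 bp from the nearer end, and turned the sign to 0.07 in KO and 0.09 in ΔATG over the days.

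OTX2 stayed high in the mutant lines at day 5, when it had dropped in WT. OTX2 gene sums were 70.2 and 57.2 CPM in KO, 66.2 CPM in ΔATG and 35.1 and 39.6 CPM in WT at day 5. At day 4 they were 51 CPM in KO, 53.8 and 51.5 CPM in ΔATG and 60 and 53.6 CPM in WT, and at day 1 they were 44.7 and 40.6 CPM in KO, 30.6 CPM in ΔATG and 42 and 43.6 CPM in WT. The groups did not overlap at day 5, and at day 4 the ΔATG and WT libraries overlapped. At day 5 the difference was 0.66 ± 0.11 in KO (adjusted p = 9.68e-06) and 0.75 ± 0.12 in ΔATG (adjusted p = 3.05e-05). The single ΔATG library of day 1 differed from WT by -0.53 ± 0.14 (adjusted p = 0.0442). The mean over the 3 days was higher in KO by 0.16 ± 0.06 (adjusted p = 0.0458), but that call was lost with total counts as scaling (0.12), with loess offsets (0.10) and without each of 6 single libraries. With coding gene ends only, which gave OTX2 31 regions in place of 10, the mean difference was -0.02.

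Regions of OTX2 split by position. The region over the inner start site itself, chr14:56805549-56805749, is not described here. Just upstream of that site, chr14:56805834-56806034 shares 84 bp with the printed inner promoter. This upstream region had 3.29 and 3.7 CPM in KO, 3.06 CPM in ΔATG and 7.65 and 7.15 CPM in WT at day 5. At day 4 it had 5.12 CPM in KO, 3.83 and 4.18 CPM in ΔATG and 12.1 and 12 CPM in WT. Every WT library exceeded every mutant library on those days, and the difference over the days was -0.80 ± 0.14 in KO (adjusted p = 2.5e-05; -0.75 without KO day 1 replicate b) and -1.17 ± 0.16 in ΔATG (adjusted p = 2.7e-07). The outer start had 8.52 and 6.45 CPM in KO, 6.45 CPM in ΔATG and 4.12 and 2.52 CPM in WT at day 5, a difference of 1.25 ± 0.29 in KO and 1.04 ± 0.33 in ΔATG. Beyond the 3′ end of the gene, chr14:56797959-56798159 had 11.7 and 8.18 CPM in KO, 9.65 CPM in ΔATG and 2.06 and 3.51 CPM in WT at day 5. The next regions on that side, chr14:56798174-56798374 and chr14:56798455-56798655, and the gene body region chr14:56808594-56808794 were also called higher in both lines at day 5.

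EMX2 had the most positive difference from WT over the SMADi days in each mutant line. Its gene sums at day 5 were 211 and 191 CPM in KO, 190 CPM in ΔATG and 110 and 121 CPM in WT. At day 4 they were 156 CPM in KO, 154 and 152 CPM in ΔATG and 120 and 107 CPM in WT, and at day 1 they were 98 and 94.8 CPM in KO, 86.9 CPM in ΔATG and 97.5 and 101 CPM in WT. The WT libraries stayed between 97.5 and 121 CPM, and the mutant libraries lay above WT at days 4 and 5. At day 5 the difference was 0.71 ± 0.07 in KO (adjusted p = 3.81e-09) and 0.66 ± 0.08 in ΔATG (adjusted p = 8.47e-07). Over the days it was 0.37 ± 0.04 in KO (0.38 without KO day 1 replicate b) and 0.28 ± 0.05 in ΔATG.

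The EMX2 gain was spread over many regions, with 14 of 32 higher and 3 lower in KO and 15 higher and 1 lower in ΔATG at day 5, against 19.2% and 21% of all regions in KO and 12% and 14.6% in ΔATG. At the promoter printed above, chr10:117542492-117542692 had 25.8 and 22.4 CPM in KO, 21.5 CPM in ΔATG and 14.9 and 10.5 CPM in WT at day 5, a difference of 0.97 ± 0.17 in KO and 0.81 ± 0.20 in ΔATG. A block of 5 regions from 768 to 2925 bp past the 3′ end was higher in both lines. In that block, chr10:117552371-117552571 had 17.7 and 18.1 CPM in KO, 17 CPM in ΔATG and 5.15 and 6.62 CPM in WT at day 5, against 5.65 and 4.27 CPM in KO, 5.82 CPM in ΔATG and 6.55 and 6.69 CPM in WT at day 1. At that region the day 5 difference was 1.56 ± 0.20 in KO (adjusted p = 7.2e-08) and 1.49 ± 0.23 in ΔATG (adjusted p = 4.5e-06). Its neighbour chr10:117551311-117551511 opened in WT too, with 1.74 and 0.845 CPM at day 1, 4.45 and 4.73 CPM at day 4 and 6.32 and 5.96 CPM at day 5, and reached 17.9 and 18.5 CPM in KO and 14.9 CPM in ΔATG at day 5. The antisense RNA EMX2OS (chr10:117484293-117545068) spans the EMX2 promoter, and accessibility there belongs to both. Because EMX2OS is not listed as lncRNA, its ends did not compete for regions, unlike those of SIX3-AS1 and OTX2-AS1. Some regions in the EMX2 sums therefore lie nearer to an end of EMX2OS than to one of EMX2. The EMX2 sums without them were not tested.

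**Figure D2:**
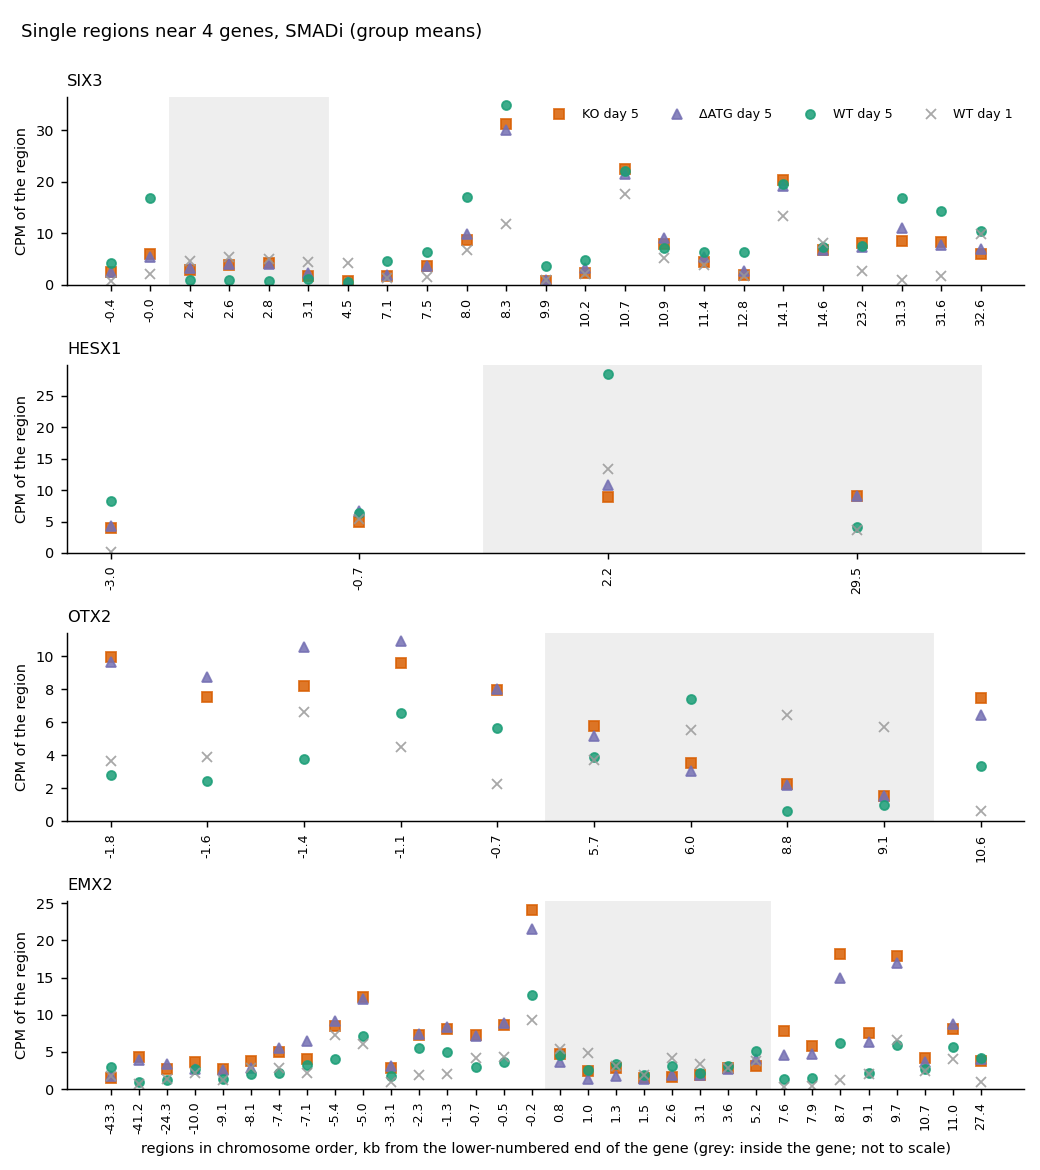
Group mean accessibility (y axis, CPM, linear from 0) of each SMADi region of SIX3, HESX1, OTX2 and EMX2 in chromosome order (x axis, kb from the lower-numbered gene end, not to scale; grey marks the gene), for KO day 5 (orange squares), ΔATG day 5 (purple triangles), WT day 5 (green circles) and WT day 1 (grey crosses). KO and ΔATG lie below WT day 5 at the SIX3 and inner HESX1 starts and above it at the EMX2 promoter and past the 3′ ends of OTX2 and EMX2.

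The eye field and zinc finger genes gave smaller or mixed differences. RAX gene sums at day 5 were 142 and 134 CPM in KO, 145 CPM in ΔATG and 119 and 130 CPM in WT and were not called. The distal RAX region 2851 bp upstream opened in each line, with 17.7 and 18.6 CPM in KO, 17.1 CPM in ΔATG and 20.1 and 17.3 CPM in WT at day 5, and its day 5 difference was -0.03 ± 0.17 in KO and -0.12 ± 0.20 in ΔATG. A region inside RAX, chr18:59269212-59269412, had 33.7 and 37.4 CPM in KO, 35.3 CPM in ΔATG and 18.4 and 23.7 CPM in WT at day 5 and was higher over the days by 0.41 ± 0.09 in KO (adjusted p = 0.00023; 0.39 without KO day 1 replicate b) and 0.42 ± 0.09 in ΔATG (adjusted p = 0.0005).

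SIX6, a close relative of SIX3, was higher in the mutant lines at its start and lower beyond its end. The start, chr14:60509006-60509206, had 22.5 and 20.3 CPM in KO, 18.9 CPM in ΔATG and 14.6 and 10.7 CPM in WT at day 5, and over the days was higher by 0.51 ± 0.11 in KO (adjusted p = 0.00045; 0.50 without KO day 1 replicate b) and 0.43 ± 0.12 in ΔATG (adjusted p = 0.0071). The region 512 bp past the end, chr14:60513262-60513462, had 0.429 and 0.128 CPM in KO, 0.696 CPM in ΔATG and 1.91 and 1.06 CPM in WT at day 5. In WT it had 6.49 and 7.73 CPM at day 1, so it closed during induction in WT and to a lower level in the mutant lines. Over the days the difference was -1.62 ± 0.28 in KO (adjusted p = 1.3e-05; -1.56 without KO day 1 replicate b) and -1.17 ± 0.26 in ΔATG (adjusted p = 0.00059). The SIX6 gene sum, with opposite changes inside it, was 56.8 and 47.3 CPM in KO, 51.8 CPM in ΔATG and 42.5 and 41.1 CPM in WT at day 5 and was not called.

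LHX2, whose gene sum was 87.9 and 87.4 CPM in KO, 94.2 CPM in ΔATG and 85.4 and 86.6 CPM in WT at day 5, was not called in either line. FEZF1 gene sums were 60.4 and 53.6 CPM in KO, 65.5 CPM in ΔATG and 56.2 and 53 CPM in WT at day 5, and FEZF2 gene sums were 65 and 57.9 CPM in KO, 62.9 CPM in ΔATG and 58.5 and 50.2 CPM in WT. The FEZF2 region that opened in WT reached 19.4 and 21.5 CPM in KO and 20.1 CPM in ΔATG at day 5, within the range of the 21.9 and 17.7 CPM in WT. A region inside FEZF1, chr7:122310409-122310609, closed in WT and had 5.51 and 3.51 CPM in KO, 3.8 CPM in ΔATG and 1.18 and 2.18 CPM in WT at day 5. FEZF2 was higher over the days with coding gene ends only, by 0.28 in KO and 0.29 in ΔATG, and was not called in the gene sums that also use lncRNA ends. Without KO day 1 replicate b it was called in KO in those sums too (0.19, adjusted p = 0.014).

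Counted over the 9 genes under SMADi, the lines differed from WT in both directions. Over the days, the shares of gene sums called were close to those of all gene sums. In KO, 2 gene sums were higher and 2 lower over the days, against 21.5% and 23.5% of all gene sums, and in ΔATG 1 was higher and 2 lower, against 15.2% and 18.9%. Of the 129 regions, 27 were higher and 19 lower in KO, against 17.9% and 21.6% of all regions, and 20 were higher and 11 lower in ΔATG, against 11.1% and 17.4%. Without KO day 1 replicate b, 3 gene sums were higher and 2 lower in KO, and 27 regions were higher and 14 lower. At day 5 alone, 2 gene sums were higher and 2 lower in each line, against 23.1% and 24.3% of all gene sums in KO and 14.3% and 17% in ΔATG. Over the regions at day 5 the KO count was 30 higher and 19 lower, against 19.2% and 21% of all regions, and the ΔATG count was 31 higher and 13 lower, against 12% and 14.6%. At day 1 the KO gene sums gave no call (0 of 9, and 1.66% of all gene sums called) and ΔATG gave 1, OTX2 (1.39% of all gene sums). The KO and ΔATG comparisons share the WT libraries, so their values are not independent.

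Between the mutant lines, 0 of 9 gene sums and 0 of 129 regions were called by edgeR's quasi-likelihood test over the SMADi days. An unadjusted p under 0.05 was reached by 0 gene sums and 6 regions, DESeq2 also called none, and without KO day 1 replicate b 0 gene sums and 0 regions were called. Only 0.102% of all gene sums and 0.0598% of all regions were called between these lines. At day 1 alone, OTX2 was higher in KO than in the single ΔATG library by 0.54 ± 0.14 and was not called.

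**Figure D3:**
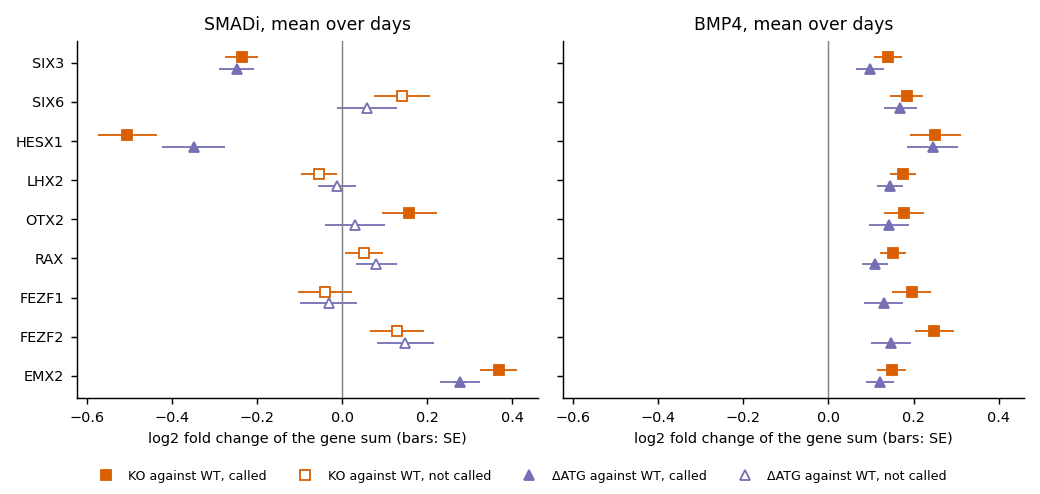
Log2 fold changes of the gene sums of the 9 genes, with bars of 1 SE, for KO and ΔATG against WT under SMADi and under BMP4. SIX3 and HESX1 lie below 0 and EMX2 above 0 under SMADi in each line, and all 9 genes lie above 0 under BMP4.

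The change from day 1 to day 5 itself differed between the lines, as tested by the interaction of line and day. For KO the difference in that change was -0.43 ± 0.09 for SIX3 (adjusted p = 0.000695), -0.60 ± 0.16 for HESX1 (adjusted p = 0.00686), 0.65 ± 0.15 for OTX2 (adjusted p = 0.00175) and 0.73 ± 0.10 for EMX2 (adjusted p = 4.93e-06). Without KO day 1 replicate b these values were -0.49, -0.45, 0.58 and 0.70, and the HESX1 call was lost (adjusted p = 0.084). With coding gene ends only, the OTX2 value was 0.07 and no longer called. In ΔATG, whose days 1 and 5 have 1 library each, the values were -0.53 ± 0.20 for HESX1 (adjusted p = 0.0496), 1.28 ± 0.18 for OTX2 (adjusted p = 2.83e-05), 0.50 ± 0.18 for FEZF1 (adjusted p = 0.0398) and 0.89 ± 0.12 for EMX2 (adjusted p = 1.88e-05).

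The HESX1 and FEZF1 calls of ΔATG were both lost without WT day 1 replicate a or b. SIX3, called in KO, was not called for this interaction in ΔATG (-0.15 ± 0.11). The 4 gene sums called in KO, 2 higher and 2 lower, stand beside 11.5% and 15.6% of all gene sums, and the 3 higher and 1 lower in ΔATG stand beside 9.32% and 12.1%. Among the regions, 18 rose more and 10 less in KO than in WT, against 6.87% and 12% of all regions, and without KO day 1 replicate b the total was 18 in place of 28. In ΔATG, 20 rose more and 2 less, against 5.1% and 8.77% of all regions.

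Cell type markers were summed over the same libraries, and each listed marker gene had counts in every library. At SMADi day 5 the 5 neuroectoderm markers (SOX1, PAX6, ZIC1, POU3F2, NES) summed to 582 to 603 CPM in KO, 561 CPM in ΔATG and 390 to 413 CPM in WT, and 4 of 5 were higher in KO and 3 in ΔATG. The 8 pluripotent markers summed to 406 to 413 CPM in KO, 410 CPM in ΔATG and 383 to 420 CPM in WT, with 6 and 7 lower over the days in KO and ΔATG. The 7 mesoderm markers summed to 397 to 400 CPM in KO, 398 CPM in ΔATG and 309 to 341 CPM in WT, with 2 higher in each line and 1 lower in ΔATG. The part of these cell type differences in the values of the 9 genes was not tested.

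BMP4 is used here to form mesoderm, and under it 6 of the 9 gene sums were lower in WT at day 5 than at day 1. The 6 that fell and 0 that rose stand beside 23% lower and 24.6% higher among all gene sums. FEZF2 had 45 and 47.9 CPM at day 1, 47.7 and 48.5 CPM at day 2, 35.7 and 39.9 CPM at day 3, 37.2 and 36.1 CPM at day 4 and 33.6 and 32.7 CPM at day 5 in WT. Its day 5 libraries lay below all earlier ones, and the fall was 0.56 ± 0.10 on the log2 scale (adjusted p = 6.06e-06). EMX2 fell by 0.34 (adjusted p = 0.000116), LHX2 by 0.27 (adjusted p = 0.000537), SIX6 by 0.27, SIX3 by 0.20 and RAX by 0.17. No omission of a single WT day 1 or day 5 library kept all 6 calls. Those of SIX3, SIX6 and RAX were lost without WT day 1 replicate a, those of SIX3 and SIX6 without WT day 5 replicate b, and that of RAX without WT day 1 replicate b or WT day 5 replicate a. HESX1, OTX2 and FEZF1 were not called, with differences of -0.06, 0.08 and -0.21. Among the 113 regions, 7 rose and 19 fell, against 20.3% and 14.7% of all regions, with a median of -0.29 against -0.03 over all regions; DESeq2 called 8 regions in all, and without WT day 5 replicate b 10 were called in place of 26.

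In both mutant lines all 9 gene sums were higher than in WT over the 5 days of BMP4. Among all gene sums, 12.8% were higher and 13.8% lower in KO, and 6.24% were higher and 6.79% lower in ΔATG. The median difference of the 9 genes was 0.18 in KO and 0.14 in ΔATG, against 0.00 over all gene sums in each line. In KO the largest were FEZF2 at 0.25 (adjusted p = 1.97e-05), HESX1 at 0.25, FEZF1 at 0.20, LHX2 at 0.18 (adjusted p = 3.47e-06), SIX6 at 0.18 and OTX2 at 0.18, and the largest adjusted p of the 9 was 0.00306. In ΔATG the differences ran from 0.10 for SIX3 to 0.24 for HESX1, with adjusted p up to 0.0472. All 9 KO calls held when any single library was left out. Those of SIX3, OTX2, FEZF1 and FEZF2 in ΔATG were lost with DESeq2 and without each of several single libraries, among them ΔATG day 5 replicate b.

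By day, most calls under BMP4 came at day 5. In KO, 0 of 9 gene sums were called at day 1 (0.113% of all gene sums called), 0 at day 2 (2.35%), 1 at day 3 (6.42%), 1 at day 4 (5.92%) and 9 at day 5, where 9.42% of all gene sums were higher. In ΔATG none was called on days 1 to 4 (0.0828%, 0.0729%, 2.34% and 0.884% of all gene sums) and 4 were called at day 5, where 2.65% were higher. Several ΔATG differences were no larger at day 5 than before: FEZF1 had 0.31 at day 3 and 0.11 at day 5, OTX2 had 0.28 at day 4 and 0.08 at day 5, and HESX1 had 0.38 on days 4 and 5, none of them called. FEZF2 had 47.8 and 48.7 CPM in KO, 38.5 and 49.7 CPM in ΔATG and 33.6 and 32.7 CPM in WT at day 5. SIX3 had 137 and 117 CPM in KO, 109 and 132 CPM in ΔATG and 105 and 99.1 CPM in WT. SIX6 had 55.4 and 61.6 CPM in KO, 52.1 and 58.1 CPM in ΔATG and 47.2 and 43.3 CPM in WT. In all 3 genes every mutant library exceeded both WT libraries at day 5. The KO difference at day 5 was 0.59 for FEZF2, 0.53 for HESX1, 0.42 for SIX6, 0.37 for EMX2, 0.36 for SIX3, 0.35 for OTX2, 0.35 for FEZF1, 0.32 for LHX2 and 0.27 for RAX.

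**Figure D4:**
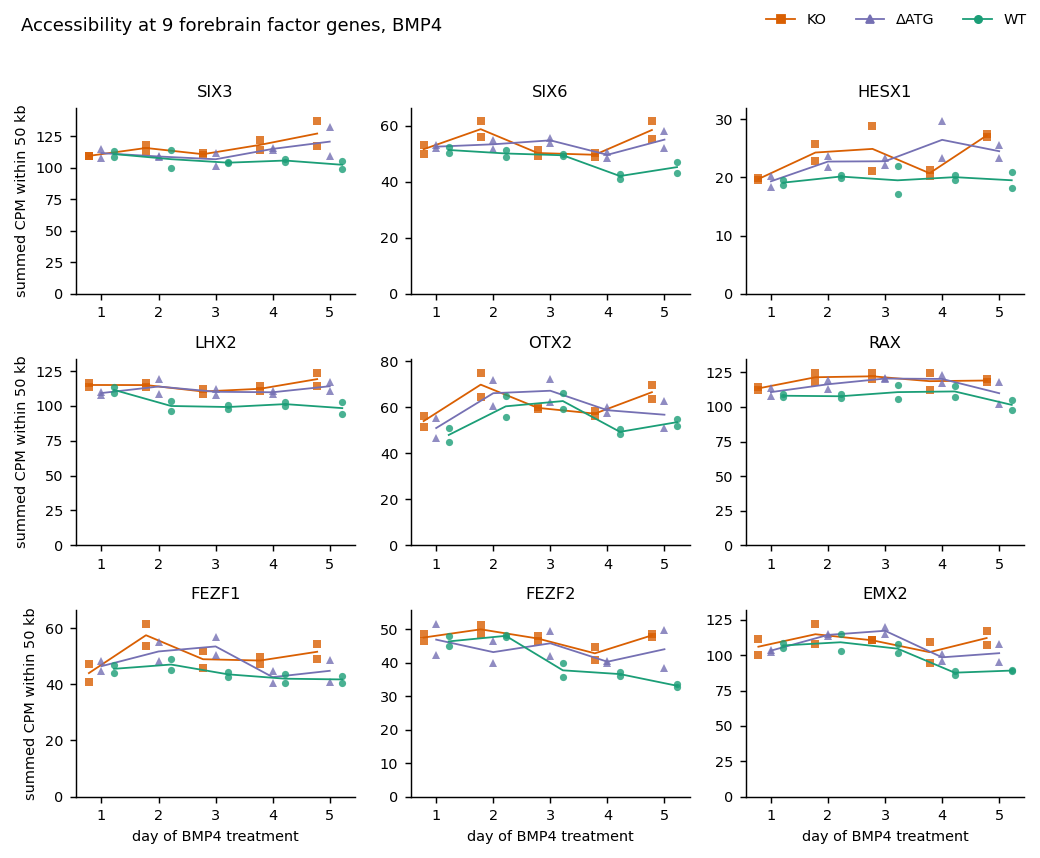
Gene sums (y axis, CPM, linear from 0) of the 9 genes on BMP4 days 1 to 5 (x axis), with 1 point per library for KO (orange squares), ΔATG (purple triangles) and WT (green circles) and lines through the group means. The points of the lines lie close together at day 1, and at day 5 the KO libraries lie above WT for each gene.

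The interaction of line and day under BMP4 was called for 5 gene sums in KO, all higher, against 2.8% of all gene sums. The values were 0.56 ± 0.14 for FEZF2 (adjusted p = 0.0103), 0.43 ± 0.12 for SIX6 (adjusted p = 0.0213), 0.40 ± 0.10 for EMX2 (adjusted p = 0.0124), 0.39 ± 0.10 for SIX3 (adjusted p = 0.0105) and 0.29 ± 0.09 for LHX2 (adjusted p = 0.0401). None of the 5 was kept without WT day 5 replicate b, 1 was kept without KO day 1 replicate a, 2 without WT day 1 replicate a, and 3 without KO day 1 replicate b or either KO day 5 library. DESeq2 called 0 of 9. In ΔATG, edgeR's quasi-likelihood test called 0 gene sums (0.262% of all gene sums) and DESeq2 0, while 5 reached an unadjusted p under 0.05.

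Most single regions were not called between the mutant lines and WT under BMP4. In KO 21 of 113 regions were higher and 1 lower, against 9.1% and 12.4% of all regions, and 8 in all were called by DESeq2. In ΔATG 6 were higher and 0 lower, against 4.12% and 5.21%, and DESeq2 called 1. A region 2810 bp upstream of RAX, chr18:59276164-59276364, overlaps the distal region that opened under SMADi. In KO it had 2.22 and 1.27 CPM at day 1, 1.88 and 1.71 CPM at day 2, 2.85 and 2.98 CPM at day 3, 4.5 and 4.88 CPM at day 4 and 7.26 and 5.44 CPM at day 5. In ΔATG it had 0.997 and 1.42, 1.82 and 2.75, 3.71 and 2.63, 5.35 and 4.31, and 6.22 and 6.46 CPM on days 1 to 5. In WT it had 2.47 and 0.753, 1.64 and 1.45, 1.32 and 1.74, 2.09 and 1.87, and 1.99 and 2.17 CPM. The mutant libraries lay above WT from day 2 on, while WT stayed at or below 2.47 CPM. Neither KO nor ΔATG was called at day 2 or day 3. The interaction with day was not called in KO (1.53 ± 0.51, adjusted p = 0.083) or ΔATG (2.04 ± 0.53, adjusted p = 0.095). Over the days the region was higher by 0.81 ± 0.17 in KO (adjusted p = 0.00012) and 0.80 ± 0.17 in ΔATG (adjusted p = 0.00058). At day 5 it was higher by 1.60 ± 0.30 in KO and 1.59 ± 0.32 in ΔATG.

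**Figure D5:**
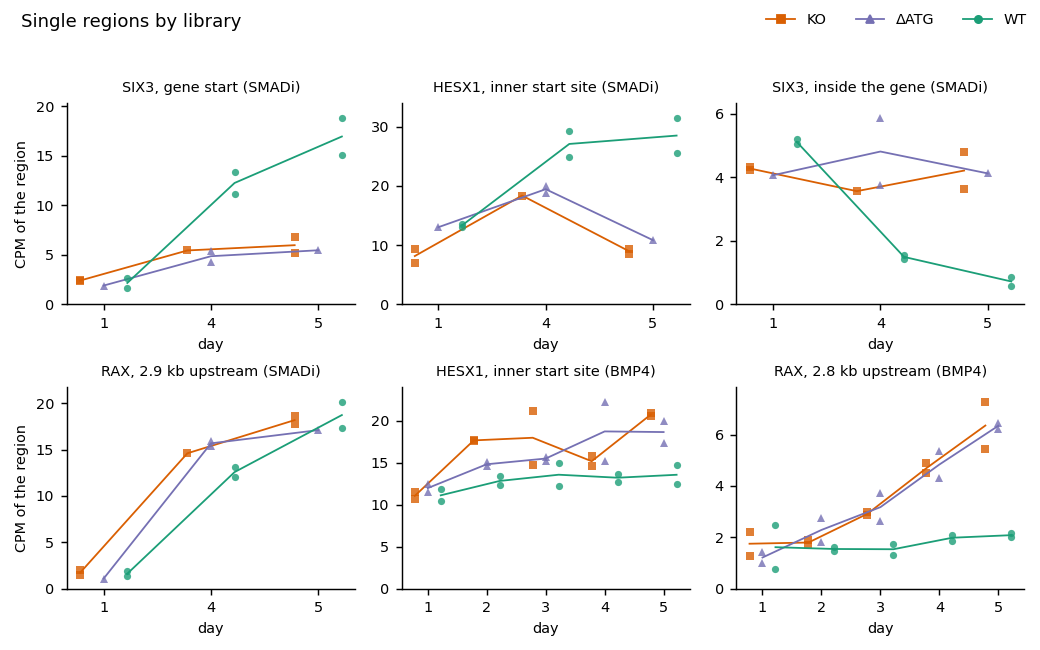
Accessibility (y axis, CPM, linear from 0) of 6 single regions by day (x axis), 4 under SMADi and 2 under BMP4, with 1 point per library for KO (orange squares), ΔATG (purple triangles) and WT (green circles) and lines through the group means. The inner HESX1 start lies below WT in both mutant lines at SMADi day 5 and above WT at BMP4 day 5, and the RAX upstream region reaches 5.44 to 7.26 CPM in KO and ΔATG at BMP4 day 5 and stays at or below 2.47 CPM in WT.

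The inner HESX1 start, chr3:57199905-57200105, had 20.9 and 20.6 CPM in KO, 19.9 and 17.4 CPM in ΔATG and 14.7 and 12.4 CPM in WT at BMP4 day 5. It was higher over the days by 0.34 ± 0.08 in KO (adjusted p = 0.00034) and 0.29 ± 0.08 in ΔATG (adjusted p = 0.0059), where under SMADi the region over the same start was lower. The SIX6 start, chr14:60509018-60509218, was higher by 0.31 ± 0.08 in KO (adjusted p = 0.0015) and 0.29 ± 0.08 in ΔATG (adjusted p = 0.0094). The only region lower in KO, chr14:60485978-60486178 near SIX6, differed by -0.34 ± 0.13 (adjusted p = 0.04). The 2 treatments were counted in separate tables, so their values are set side by side and the difference between them was not tested.

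Of the 36 regions that opened in WT under SMADi, 18 shared at least 100 bp with a BMP4 region. Of those 18, 5 were higher and 0 lower in KO under BMP4, and 3 were higher and 0 lower in ΔATG. Of the 58 matched regions not called in WT under SMADi, 13 were higher and 1 lower in KO under BMP4. In ΔATG 2 of those 58 were higher and 0 lower. Of the 13 matched regions that closed, 2 were higher and 0 lower in KO, and 1 was higher and 0 lower in ΔATG. Of all 142083 BMP4 regions tested, 12923 were higher and 17571 lower in KO, and 5849 were higher and 7398 lower in ΔATG.

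At BMP4 day 5 the pluripotent markers summed to 474 to 481 CPM in KO, 445 to 479 CPM in ΔATG and 414 to 423 CPM in WT, and 7 of 8 were higher over the days in KO and 4 in ΔATG. The mesoderm markers summed to 517 to 521 CPM in KO, 552 to 564 CPM in ΔATG and 619 to 672 CPM in WT, and 5 of 7 were lower in each line. The 7 neural crest and placode markers summed to 447 to 453 CPM in KO, 418 to 439 CPM in ΔATG and 390 to 393 CPM in WT, with 3 higher in each line. The 5 amnion, trophoblast and surface epithelium markers summed to 323 to 341 CPM in KO, 345 CPM in both ΔATG libraries and 408 to 433 CPM in WT, with 1 higher and 1 lower in KO and 1 lower in ΔATG. The part of these marker differences in the values of the 9 genes was not tested. Between the mutant lines over the BMP4 days, edgeR's quasi-likelihood test called 0 of 9 gene sums and 0 of 113 regions (2.64% and 1.84% of all gene sums and regions). An unadjusted p under 0.05 was reached by 1 gene sum and 10 regions, and DESeq2 called 0. At day 5 alone, OTX2, RAX, FEZF1 and EMX2 reached an unadjusted p under 0.05 between these lines, and none of them was called.

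Before differentiation none of the 9 genes was called against WT. At day 0, edgeR's quasi-likelihood test called 0 of 9 gene sums and 0 of 92 regions in KO (0.188% and 0.0855% of all gene sums and regions) and 0 of each in ΔATG (0.358% and 0.206%), and DESeq2 also called none. An unadjusted p under 0.05 was reached by 1 gene sum and 9 regions in KO and by 0 gene sums and 4 regions in ΔATG. SIX3 gene sums were 112 and 116 CPM in KO, 113 and 110 CPM in ΔATG and 108 and 107 CPM in WT. HESX1 gene sums were 22 and 18.5 CPM in KO, 18.1 and 24.2 CPM in ΔATG and 19.9 and 22.3 CPM in WT. OTX2 gene sums were 50.4 and 53.9 CPM in KO, 52.4 and 45.3 CPM in ΔATG and 39.8 and 49 CPM in WT. The groups overlapped or lay within a few CPM of each other. A p that missed the threshold does not show that the groups were equal.

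Other genes of neural tissue gave the setting for the 9 under SMADi. Among all gene sums, 22.9% were higher and 21% lower in WT over time, 21.5% and 23.5% in KO against WT, and 15.2% and 18.9% in ΔATG against WT. Of 14 general neural plate genes, such as SOX1 and the ZIC genes, 6 rose and 0 fell in WT between SMADi days 1 and 5, and over the SMADi days 10 were higher in KO and 9 in ΔATG, with none lower in either. Of 20 midbrain, hindbrain and cord genes, 3 rose and 5 fell in WT, 9 were higher and 2 lower in KO, and 4 were higher and 1 lower in ΔATG. Of 11 secreted antagonists and patterning genes, such as DKK1 and SFRP1, 4 rose and 2 fell in WT, 3 were higher and 3 lower in KO, and 3 were higher and 2 lower in ΔATG.

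The gene sums most like the mean of the 9 genes over the 9 SMADi group means were those of PRDM1 (Pearson r = 0.996), GK5 (r = 0.995), RPAP2 (r = 0.991), NAALADL2 and LNPK, out of 11224 protein-coding genes. Over the 15 BMP4 group means they were those of MACF1 (r = 0.945), NR2E1, SOX1, NR5A2 and GBX2. Group means of one table share depth and scaling, and these values are descriptions. Among the 9 genes themselves, RAX followed their mean most closely under SMADi (r = 0.987) and LHX2 ran against it (r = -0.61). Each gene is part of the mean it was compared with, so these r values are not independent of it.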

How the data were processed

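ATAC-seq libraries of H1 cells were compared as read counts per region in 3 tables (day 0, BMP4, SMADi), which the authors deposited as unnormalised counts. Peaks were called with MACS2 on GRCh38, per the submitters' processing notes. Which aligner was used, how duplicates were handled and whether reads were shifted for Tn5 is not given in the sources used here. SMADi days 2 and 3 were not analysed here, and day 0 was not tested against later days because each table has its own regions. Library totals ranged from 4019778 to 23252871 counts, and the median biological coefficient of variation was 0.0844 at day 0, 0.0756 under BMP4 and 0.138 under SMADi. PCR reads carry no molecular identifiers, so intervals cover counting error only.

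Regions and gene sums were tested with edgeR 4.0.16 (TMM scaling, filterByExpr, robust quasi-likelihood F test, Benjamini-Hochberg adjustment over all features) in R 4.3.3, with 1 mean per genotype and day. A line's effect is the mean of its within-day differences from WT, and the interaction is the mutant change from day 1 to day 5 minus that of WT. CPM used TMM-scaled totals. DESeq2 1.42.0, other scalings, other gene windows, coding gene ends only, no low-count filter, a replicate block and the omission of single libraries were alternatives. Fits without a library reused the table's trended dispersion. The procedure was tested on simulated data. Samples were not paired by replicate letter in the main fits. Correlations of same-lettered deviations ranged from -0.312 to 0.332. These values cannot show whether same-lettered libraries shared a batch. Promoter sequences are from RefSeq. Regions were named by rule: for each gene and table, the one with the highest mean CPM and the one with the smallest p in each direction in WT between days 1 and 5, and for each line the 3 called regions with the smallest p in each direction. Other regions in the text were chosen after their values were seen. The genes and lists were chosen with earlier results of these data known. A list of further forebrain genes is not reported here.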

Additional observations from a re-analysis of the deposited data

Results flagged for a closer look

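The change from day 1 to day 5 differed between a mutant line and WT, by the interaction term of edgeR's quasi-likelihood test, for the following gene sums. Under SMADi in KO the difference in log2 change was 0.73 for EMX2, 0.65 for OTX2, -0.60 for HESX1 and -0.43 for SIX3. Under SMADi in ΔATG it was 1.28 for OTX2, 0.89 for EMX2, 0.50 for FEZF1 and -0.53 for HESX1. Under BMP4 in KO it was 0.56 for FEZF2, 0.43 for SIX6, 0.40 for EMX2, 0.39 for SIX3 and 0.29 for LHX2. All 5 BMP4 values lost their call without WT day 5 replicate b and with DESeq2. Under SMADi, the ΔATG values of HESX1 and FEZF1 lost their call without either WT day 1 library, the KO value of HESX1 without KO day 1 replicate b (-0.45), and the KO value of OTX2 with coding gene ends only (0.07).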

How the results depend on the processing

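Counts of called gene sums and regions stayed within 1.5 times of the reported count in 196 comparisons with another setting and left that range in 17. With DESeq2, regions called numbered 8 in WT BMP4, 8 in KO against WT BMP4 and 1 in ΔATG against WT BMP4, against 26, 22 and 6, and ΔATG against WT BMP4 called 5 genes against 9. Interactions called with DESeq2 were 0 genes and 0 regions for KO BMP4, against 5 and 1, and 2 genes and 12 regions for ΔATG SMADi, against 4 and 22. Gene sums within 1 kb called 3 genes for ΔATG BMP4, 2 for WT SMADi, 2 for KO SMADi, 1 for ΔATG SMADi, and in the interactions 1 for KO BMP4, 2 for KO SMADi and 2 for ΔATG SMADi. Loess offsets gave 2 regions in the KO BMP4 interaction, and coding gene ends only gave 1 gene in that of ΔATG BMP4. Signs turned within 1 kb for WT SMADi OTX2 (1.62), RAX (-0.0105) and FEZF2 (-0.33), for HESX1 in KO (0.0682), in ΔATG (0.0942) and in the ΔATG SMADi interaction (0.36), and with coding gene ends only for OTX2 in KO SMADi (-0.0212). The 1 kb sums hold fewer regions and leave out the inner HESX1 start; other causes were not tested.

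Leaving out single libraries gave 3 to 5 genes and 10 to 19 regions for WT BMP4, 9 to 9 and 14 to 21 for KO BMP4, 5 to 9 and 3 to 7 for ΔATG BMP4, 0 to 5 and 0 to 2 for the KO BMP4 interaction, 0 to 2 and 0 to 1 for the ΔATG BMP4 interaction, and 0 to 1 regions between KO and ΔATG under BMP4. Under SMADi it gave 4 to 6 genes and 45 to 53 regions for WT, 3 to 5 and 39 to 53 for KO, 3 to 4 and 24 to 40 for ΔATG, 3 to 4 and 18 to 32 for the KO interaction, and 2 to 5 and 15 to 30 for the ΔATG interaction. The lowest counts came without WT day 5 replicate b (WT BMP4 regions and KO BMP4 interaction), WT day 4 replicate a (KO BMP4 regions), KO day 1 replicate b (KO SMADi interaction regions), WT day 2 replicate a or WT day 5 replicate b (ΔATG BMP4 regions), ΔATG day 2 replicate b, WT day 3 replicate a or ΔATG day 5 replicate b (ΔATG BMP4 genes) and either WT day 1 library (ΔATG SMADi interaction genes). WT BMP4 regions numbered 15 without WT day 1 replicate a or WT day 5 replicate a, and the ΔATG BMP4 interaction gave 2 genes without ΔATG day 5 replicate a. With a replicate block, KO against WT SMADi called 5 genes and 49 regions, and no count left the 1.5-fold range. Leaving out the 3 groups of 1 SMADi library was not run, since no library would remain. The shallowest SMADi library, WT day 5 replicate a, had 7086918 counts, and regions of under 1 CPM rest on few reads.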
